A study of Ananas comosus with 78 samples.

Results

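The shoot apex and the leaf base of pineapple (Ananas comosus) plants that had been given water and no ethephon were compared at the 5 samplings for which both tissues were sequenced. The libraries were chosen by their labels, as stem apex and "D" leaf libraries of untreated plants at samplings 1 to 5, and they number 30 of the 78 libraries of the series, 15 per tissue. The series was made to follow floral induction by ethephon, a compound that releases ethylene, and leaf bases served in it as tissue without an apex. Both groups came from field-grown plants of PRI 73-50, for which the labels give the cultivar as 'MD1' in one field and as 'MD2' in another, and in both groups 10 ml of water had been applied to the plant centre. The labels number the samplings 1 to 5. Following the times in the paper, these are called 6 h and days 1, 2, 3 and 4 here, and for the leaf base this reading rests on the times given in the Results. The Methods also name day 5 for the leaf, so that the sources conflict on the leaf base times. Tissue was taken in 3 field replications per sampling, each a pool of 3 plants, so that each tissue had 3 libraries per sampling. The excised apex still carried leaf primordia, and the leaf base was the basal part of the most recently matured leaf. Handling of the 6 h tissue ran into the afternoon whereas that of the later samplings ended by noon, so that in both tissues the 6 h sampling and the hours of handling cannot be told apart.

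The shoot apical meristem holds the stem cells from which leaves, stem and flowers arise. In model plants, class I KNOTTED-1-like homeobox proteins keep its cells undetermined, WUSCHEL maintains the stem cells above an organising centre, and CLAVATA3, a secreted peptide, limits WUSCHEL. Around the meristem, auxin carriers direct auxin into sites of organ formation, cytokinin promotes division, and gibberellin is kept low by GA2-oxidases, while growth-regulating factors and histone genes mark young dividing tissue. The base of a monocot leaf carries cells that enlarge and differentiate, move sugar and respond to stress. Whether cells of the sampled leaf bases still divided was not measured.

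The deposited values are counts per gene. Totals ran from 1989688 to 5861670 in the 15 apex libraries (median 3771922) and from 2690517 to 7763954 in the 15 leaf base libraries (median 5818854). All apex libraries were sequenced on 1 lane and the leaf base libraries on 4 other lanes, so that no lane held both tissues and a lane effect cannot be told apart from the tissue in any value below. In bulk tissue, fewer cells of a type and less RNA per cell cannot be told apart either. Of the 27024 genes in the files, 23714 had at least 1 count in these 30 libraries. On log2 CPM, counts scaled to library size and TMM factor, the first principal component held 50.3% of the variance and separated the tissues, and the second held 12.5%.

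**Figure D1:**
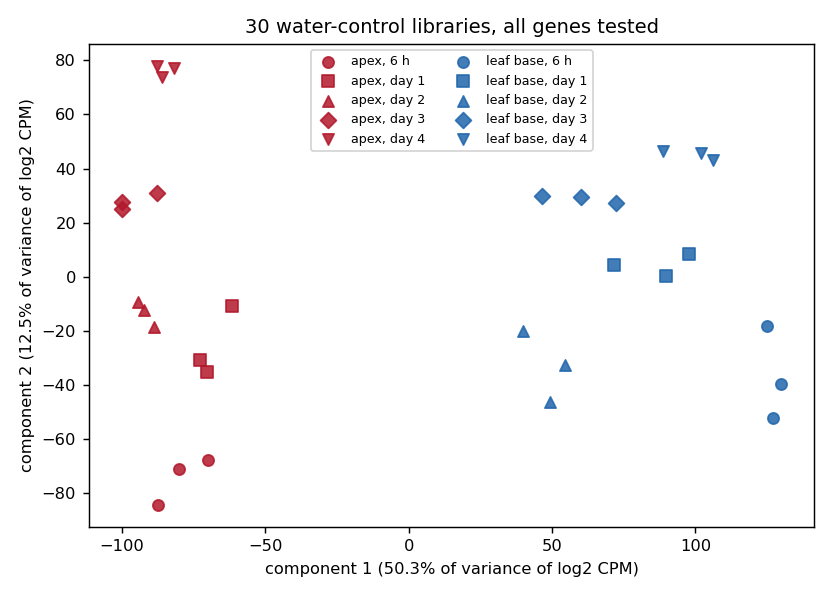
First (horizontal) and second (vertical) principal components of log2 CPM of all genes tested, one point per library, with colour for the tissue and symbol for the sampling. The 15 apex libraries lie to the left of the 15 leaf base libraries, and the day 4 libraries lie highest in each tissue; at the apex the 6 h libraries lie lowest, whereas at the leaf base the 6 h and day 2 libraries lie lowest.

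Apex against leaf base was tested with sampling as a covariate, with the quasi-likelihood test of edgeR and p-values adjusted (Benjamini-Hochberg) over all 23714 genes. A gene was called higher or lower at the apex if its adjusted p was below 0.05 and its log2 fold change, apex over leaf base, reached 1 in size. Of all genes, 2916 (12.3%) were higher and 4210 (17.8%) were lower at the apex, and the median log2 fold change was -0.06. These shares are the background for the lists below. The 15 apex libraries all lay above the 15 leaf base libraries for 810 genes (3.42%) and all below them for 1178 genes (4.97%). Among genes called in the same direction at all 5 samplings, those with the largest log2 fold changes carry no annotation in the sources used here. Aco004121 (linkage group 15, 1234350 to 1236306) had 435 to 3379 CPM in the apex libraries (median 1279), against 0.277 to 18.5 CPM in the leaf base libraries (median 0.653). Aco004849 (linkage group 7, 299913 to 302116) had 24.5 to 875 CPM (median 172) at the apex, against 0 to 4.80 CPM (median 0) at the leaf base. In the other direction, Aco004354 (linkage group 5, 2410440 to 2454401) had 0 to 5.11 CPM (median 0.801) at the apex, against 1349 to 12130.2 CPM (median 4879) at the leaf base. Its neighbour Aco004355 (linkage group 5, 2463737 to 2464838) had 0 to 0.258 CPM in the apex libraries (median 0), against 3.69 to 1807 CPM in the leaf base libraries (median 58.8), of which replicate 2 of day 3 was the highest. For none of these 4 genes did the tissue ranges overlap.

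In all, 24 lists with 342 genes were followed, with gene names as given by the paper and its supplement. Of the members, 209 came from the text of the paper and 133 from a gene listing in its supplement, held only in part. The counts per list therefore cover the listed members and not whole gene families. Positions are on the genome version the authors used (Acomosus_321_v3). Every member had a count and was tested, and 83 of them were higher and 63 lower at the apex. Many of these genes were named by the study for their response to ethephon, so that the lists are not a sample of all genes. A further caution is that reads were counted without regard to strand and at every place they matched, which leaves the 31 members whose exons overlap another gene, and members with near-identical copies, uncertain.

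**Figure D2:**
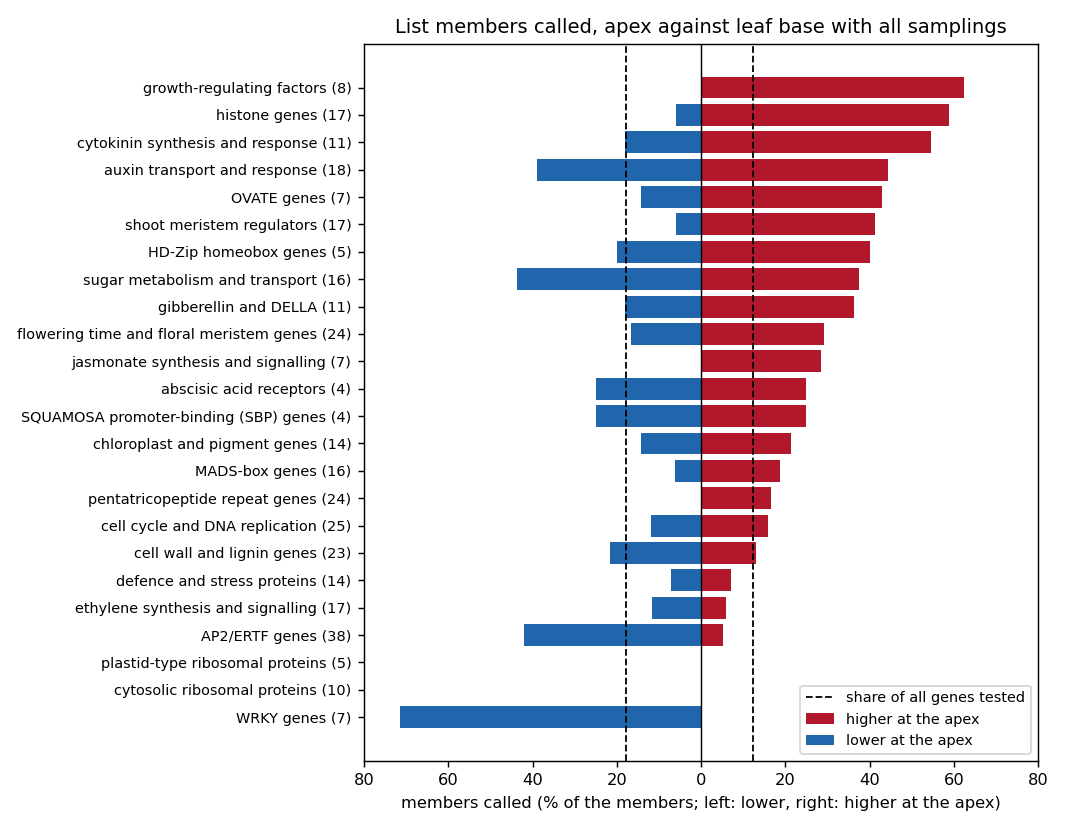
Share of the members of each list that were higher (right, red) or lower (left, blue) at the apex than at the leaf base with all samplings, in % of the members, with the number of members in brackets. Dashed lines mark the shares among all genes tested, 12.3% higher and 17.8% lower; growth-regulating factors and histone genes extend farthest to the right and WRKY genes to the left.

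Of the 17 genes listed as shoot meristem regulators, 7 were higher at the apex and 1 was lower, with a median log2 fold change of 0.92. From 6 h to day 4 the number called higher was 4, 4, 4, 6 and 8, beside 13.7%, 8.17%, 9.43%, 13.6% and 15.6% of all genes tested. The number called lower was 2, 0, 4, 1 and 1, beside 19.3%, 13.4%, 12.2%, 14.6% and 17.6%. The list is broad and also holds TOPLESS-related, epidermal patterning and light-dependent short hypocotyl genes. With all samplings, an epidermal patterning gene was among the higher ones and another was the lower one. The clearest were the homeobox genes. Aco015873, KNOTTED-1-like (linkage group 1, 11079514 to 11087347), had 32.7 to 128 CPM in the apex libraries (median 67.6), against 0 to 3.83 CPM in the leaf base libraries (median 0.830), a log2 fold change of 6.04 ± 0.31 (SE, adjusted p = 5.3e-17, edgeR quasi-likelihood test, Benjamini-Hochberg adjusted). Every apex library lay above every leaf base library. The second gene of this class, Aco004983 (linkage group 7, 1226798 to 1233463), was less abundant, at 3.53 to 12 CPM (median 6.33) at the apex against 0 to 0.878 CPM (median 0) at the leaf base, with a log2 fold change of 4.98 ± 0.36. Both KNOTTED-1-like genes were higher at the apex at all 5 samplings.

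Aco006233, a WUSCHEL homolog (linkage group 16, 7686612 to 7691648), was the only member of this list without a read in any leaf base library. The apex libraries held 0.465 to 9.98 CPM (median 3.31), 297 reads in all, and the level at the apex was at least 123-fold higher when the leaf base is set to 3 counts over its 15 libraries. At the apex its mean was 0.567 ± 0.0748 CPM at 6 h and 0.952 ± 0.659, 3.94 ± 1.55, 4.79 ± 1.24 and 9.50 ± 0.417 CPM over days 1 to 4 (SD, n = 3 each). It was counted as higher at the apex on days 1 to 4 and missed the threshold at 6 h, where the level was lowest. On day 1 the call was lost without apex replicate 1 or without leaf base replicate 1, and the log2 fold change lay between 4.30 and 5.34 when each of the 6 libraries was left out in turn. The other WUSCHEL homolog, Aco015382, was low in both tissues, with 0 to 3.45 CPM (median 0.567) at the apex against 0 to 0.773 CPM (median 0.370) at the leaf base. Its log2 fold change was 1.26 ± 0.39, and the call was lost without replicate 1 of both tissues (1.06).

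The CLAVATA3/ESR-related gene Aco026242, a peptide of the class that limits WUSCHEL, had 0.840 to 4.69 CPM (median 2.61) at the apex against 0 to 3.75 CPM (median 2.02) at the leaf base. These ranges overlapped and the gene was not called (log2 fold change 0.53 ± 0.24, adjusted p = 0.051, edgeR quasi-likelihood test, Benjamini-Hochberg adjusted). The 3 WOX genes are relatives of WUSCHEL. Aco008700 (linkage group 9, 1669243 to 1676348) had 98.2 to 354 CPM (median 179) at the apex against 28.3 to 79.2 CPM (median 48.7) at the leaf base, without overlap, and a log2 fold change of 1.78 ± 0.12. Its apex mean was 289.6 ± 55.7 CPM at 6 h and lower at each later sampling, down to 110.0 ± 10.3 CPM on day 4 (SD, n = 3). Aco012965 was higher at the apex (log2 fold change 1.18 ± 0.25). Aco023084 had 15.1 to 31 CPM (median 23.2) at the apex against 25.6 to 73.7 CPM (median 39.2) at the leaf base. With all samplings it stayed within the fold limit (-0.85 ± 0.13). Its log2 fold change was -1.14 at 6 h, a call that was lost without leaf base replicate 1 (-0.90), and -1.75 on day 2. The 3 TOPLESS-related corepressors had log2 fold changes of 0.57, 0.14 and 0.93, and none was called with all samplings. The last of them, Aco018150, lay near the fold limit and was called higher in 5 of 41 alternative fits with all samplings. It was also called higher on day 3 (1.21), a call that was lost without leaf base replicate 1 (0.99). Of the epidermal patterning genes, secreted peptides that space stomata, Aco013360 was higher at the apex, at 0 to 2.07 CPM (median 0.345) against 0 to 0.608 CPM (median 0) at the leaf base. Its relative Aco000218 was lower, at 1.63 to 7.09 CPM (median 3.61) against 5.56 to 17.9 CPM (median 11.6) at the leaf base, with a log2 fold change of -1.51 ± 0.18.

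**Figure D3:**
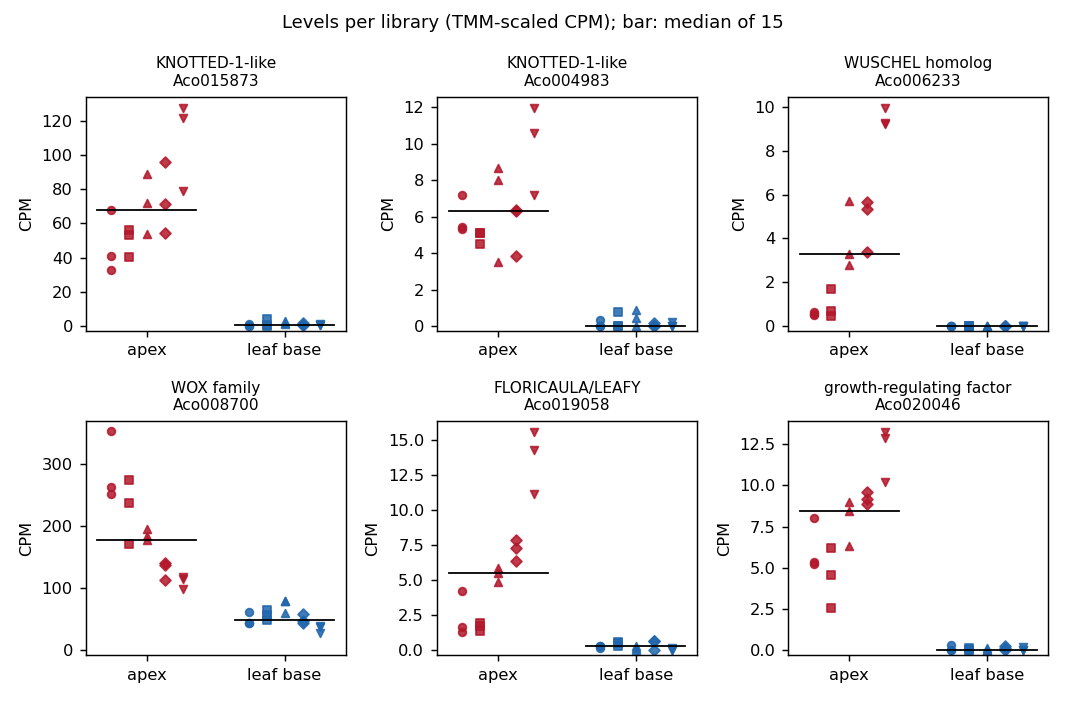
TMM-scaled CPM per library (vertical axes, linear) of 6 genes at the apex (left, red) and the leaf base (right, blue), with the samplings from 6 h to day 4 placed left to right within each tissue and a bar at the median of 15 libraries. In each panel all apex libraries lie above all leaf base libraries; within the apex, the WUSCHEL, LEAFY and growth-regulating factor points are highest on day 4 and the highest WOX point is a 6 h library.

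MADS-box genes, of which several act in floral timing and organ identity, were higher at the apex for 3 of 16 and lower for 1, with a median log2 fold change of 0.24. The 5 AcSOC1 genes, relatives of a floral integrator of Arabidopsis, stayed between -0.30 and 0.35 on the log2 scale, and the 3 SVP genes, relatives of a repressor of flowering, between -0.53 and 0.12, and none of the 8 was called with all samplings. Aco015104, AGAMOUS-like 14 (linkage group 1, 24318710 to 24340976), had 6.39 to 25.4 CPM (median 14.9) at the apex against 0.890 to 5.71 CPM (median 2.40) at the leaf base, without overlap, and a log2 fold change of 2.48 ± 0.20. Aco015499, a MADS-box gene with no further name, was abundant, with 108 to 249.8 CPM (median 176) at the apex against 27.8 to 88.1 CPM (median 47.8) at the leaf base (log2 fold change 1.75 ± 0.09). The lower one was Aco014671, at 0.638 to 19.3 CPM (median 2.66) at the apex against 4.87 to 58.2 CPM (median 16.2) at the leaf base, a gene whose exons overlap 2 others. AcFUL1 and AcFUL2, of the FRUITFULL group that acts in inflorescence meristems, stood at medians of 0.552 and 0.276 CPM at the apex against 0 CPM for both at the leaf base. AcFUL1 (Aco004839) was called higher on days 3 and 4 and with all samplings (log2 fold change 2.94 ± 0.59), but its exons overlap another gene. AcFUL2 (Aco012428) was called higher at 6 h alone, where the apex mean was 3.67 ± 4.27 CPM (SD, n = 3) and the leaf base had no read. That call was lost without leaf base replicate 3.

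Of the flowering time and floral meristem genes, 7 of 24 were higher and 4 lower at the apex. Their median log2 fold change was 0.17, or 0.43 when genes with 3 reads or fewer in a tissue were set to their bound or ratio and the genes at that limit in both were left out. FLORICAULA/LEAFY, a transcription factor that gives floral meristems their identity, was represented by gene models that lie next to each other on linkage group 20. Aco019058 (207751 to 208116) had 1.29 to 15.6 CPM (median 5.52) at the apex against 0 to 0.692 CPM (median 0.278) at the leaf base, with a log2 fold change of 4.23 ± 0.37 (adjusted p = 1.5e-11, edgeR quasi-likelihood test, Benjamini-Hochberg adjusted). Its apex mean was 1.70 ± 0.297 CPM on day 1 and 13.7 ± 2.28 CPM on day 4, against 0.465 ± 0.127 and 0.0653 ± 0.113 CPM at the leaf base (SD, n = 3 each), and the tissue difference changed over the samplings (adjusted p = 0.0026, edgeR quasi-likelihood test of tissue by sampling, Benjamini-Hochberg adjusted). The day 1 call was lost whichever of the 6 libraries was left out, with DESeq2 and with the replicate block, and the 6 h call without replicate 3 of either tissue. Aco019059 (205338 to 206090) had 60 reads at the apex and none at the leaf base, at least 24.9-fold higher against 3 counts. UNUSUAL FLORAL ORGANS (Aco008339), an F-box partner of LEAFY in Arabidopsis, had 44 reads at the apex and none at the leaf base, at least 18.3-fold higher, although its exons overlap another gene. STERILE APETALA (Aco002301) had 212 reads against 3, a ratio of 88.1 with a 95% exact interval of 29.8 to 431 that covers counting error only, and its apex mean was 0 CPM at 6 h and 7.06 ± 1.16 CPM on day 4.

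The FLOWERING LOCUS T genes Aco010683 and Aco010684, which encode the mobile floral signal, had no read in the apex libraries and 1 and 2 reads in the leaf base libraries, so that a difference was not detectable at this depth. TERMINAL FLOWER (Aco016718), of the same protein family and a repressor of flowering, had 3 reads at the apex against 48 at the leaf base, a ratio of 12.8 in the direction of the leaf base (95% exact interval 4.13 to 64.4, counting error only). The second gene of that name, Aco031443, had 1 read at the apex against 6 at the leaf base and was not called, with a ratio of 4.81 in the direction of the leaf base (95% exact interval 0.584 to 221, counting error only). CONSTANS-like genes, B-box proteins of which some act in day length responses, gave 3 of 6 higher and 1 lower. Aco003091 (linkage group 6, 13777674 to 13782720) had 27.7 to 238 CPM (median 109) at the apex against 13.6 to 61.3 CPM (median 37.4) at the leaf base, with log2 fold changes of -0.68 at 6 h and 2.08, 2.80, 2.06 and 2.39 on days 1 to 4. It was called higher on days 1 to 4 and not at 6 h. Aco006513, whose exons overlap another gene, was likewise called on days 1 to 4, but the day 2 call (log2 fold change 1.13) was lost without apex replicate 3 (0.83). Aco026137 was lower (log2 fold change -1.37 ± 0.41), but the call was lost without the 6 h sampling (-0.99) and without replicate 3 of both tissues (-1.18). Aco000131, ELF4-like 4 (linkage group 12, 4397975 to 4399447), had 1.38 to 7.84 CPM (median 6.17) at the apex against 15.5 to 25.2 CPM (median 19.4) at the leaf base, without overlap, and was lower at each sampling, with log2 fold changes of -1.95 to -1.48. FKF1 (Aco000252), a blue light receptor of the clock, was lower on days 1, 2 and 3, and GIGANTEA-like (Aco014347) on day 2 alone, with 179 ± 11.6 CPM at the apex against 447 ± 98.1 CPM at the leaf base (SD, n = 3 each).

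Growth-regulating factors, transcription factors that promote cell division in young leaves, were higher for 5 of 8 and lower for none, with a median log2 fold change of 1.92. Aco020046 (linkage group 3, 9349100 to 9351207) had 2.55 to 13.2 CPM (median 8.41) at the apex against 0 to 0.343 CPM (median 0) at the leaf base, with a log2 fold change of 6.17 ± 0.29 (adjusted p = 9.5e-18, edgeR quasi-likelihood test, Benjamini-Hochberg adjusted). GROWTH-REGULATING FACTOR 2 (Aco000277) had 87.6 to 165 CPM (median 105) at the apex against 6.17 to 29.1 CPM (median 16.2) at the leaf base, and no library of one tissue reached the range of the other. Aco004075 had 1.06 to 14.6 CPM (median 5.81) against 0 to 2.07 CPM (median 0.511) at the leaf base. Of these 8 genes, 5 were higher at 6 h, 3 each on days 1 and 2, 6 on day 3 and 7 on day 4, beside 13.7%, 8.17%, 9.43%, 13.6% and 15.6% of all genes tested at these samplings. At single samplings 1 was lower at 6 h and 1 on day 1, beside 19.3% and 13.4% of all genes. The tissue difference changed over the samplings for 7 of the 8, beside 32.6% of all genes.

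Genes of the histone list were higher at the apex for 10 of 17 and lower for 1 (median log2 fold change 1.50). The list follows the paper's grouping and includes Aco003152, which a figure of the paper labels Hap3/NF-YB, so that not every member is a histone by name. Aco018209, histone H3 (linkage group 1, 13810859 to 13814222), had 50.4 to 314 CPM (median 117) at the apex against 3.77 to 24.3 CPM (median 15.6) at the leaf base, and Aco001050, linker histone H1-3, had 63.5 to 235 CPM (median 109) against 3.09 to 27.6 CPM (median 12.5). Neither range overlapped that of the leaf base, and the log2 fold changes were 3.29 ± 0.16 and 3.26 ± 0.17. The H3 gene averaged 69.0 ± 5.02 CPM at the apex at 6 h and 303 ± 11.3 CPM on day 4, against 5.24 ± 1.27 and 16 ± 3.24 CPM at the leaf base (SD, n = 3 each). The exception was Aco014218, histone H2A-12 (linkage group 13, 887692 to 889326). It had 0 to 13.9 CPM (median 3.87) at the apex against 3.59 to 195 CPM (median 81.2) at the leaf base, where its means were 112 ± 16.4 CPM at 6 h and 147 ± 42.9, 8.48 ± 3.60, 10.5 ± 6.11 and 81.2 ± 10.5 CPM over days 1 to 4. It was lower at the apex at all samplings but day 2, and the day 3 call was lost without apex replicate 2 or leaf base replicate 1 or 2. Of the 17 listed genes, 14 changed their tissue difference over the samplings, beside 32.6% of all genes. The number called higher was 12 at 6 h, 6, 4 and 9 on days 1 to 3 and 11 on day 4. Among all genes tested the shares called higher were 13.7%, 8.17%, 9.43%, 13.6% and 15.6% from 6 h to day 4.

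Other cell cycle and replication genes were higher for 4 of 25 and lower for 3, with a median log2 fold change of 0.15. E2F transcription factor 1 (Aco000996), which drives entry into DNA synthesis, had 33.8 to 59.4 CPM (median 47.6) at the apex against 5.14 to 31.8 CPM (median 21.7) at the leaf base, without overlap (log2 fold change 1.41 ± 0.16). The CDK inhibitor SIAMESE (Aco010247), which stops mitosis in cells that enter endoreduplication in Arabidopsis, had 0.159 to 9.29 CPM (median 4.25) at the apex against 3.42 to 72.2 CPM (median 16.8) at the leaf base, with a log2 fold change of -2.53 ± 0.31 and calls at all samplings but day 1. With all samplings, no ribosomal protein was called among 10 cytosolic and 5 plastid-type ones, with median log2 fold changes of -0.17 and 0.37. At single samplings 1 cytosolic and 2 plastid-type members were higher at the apex at 6 h, and 1 of each on day 4, beside 13.7% and 15.6% of all genes.

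Auxin transport and response genes were higher at the apex for 8 of 18 and lower for 7, and the efflux carriers, membrane proteins that export auxin from cells, held both ends of the list. Aco000734 (linkage group 2, 17096147 to 17101044) had 149 to 695 CPM (median 436) at the apex against 12.3 to 95.4 CPM (median 38.2) at the leaf base, a log2 fold change of 3.34 ± 0.20 (adjusted p = 3.5e-15, edgeR quasi-likelihood test, Benjamini-Hochberg adjusted). Aco009213 (linkage group 22, 8529151 to 8533050) was the reverse, with 0.481 to 21.7 CPM (median 3.04) at the apex against 111 to 592 CPM (median 258) at the leaf base, a log2 fold change of -5.69 ± 0.30 (adjusted p = 1.3e-16, edgeR quasi-likelihood test, Benjamini-Hochberg adjusted). Aco005423, a carrier gene whose exons overlap another gene, had 0.761 to 6.35 CPM (median 3.48) at the apex against 25.5 to 63.7 CPM (median 38.2) at the leaf base. None of these 3 ranges overlapped between the tissues. Per length, the median levels were 240.2 FPKM at the apex and 21 FPKM at the leaf base for Aco000734, and 1.58 FPKM at the apex and 134 FPKM at the leaf base for Aco009213. Of the 7 carriers, 1 was higher and 5 were lower at the apex, whereas all 3 auxin influx transporters were higher, with log2 fold changes of 1.61 to 2.46. The D6 protein kinase-like genes Aco000460 and Aco000881, of a class that activates auxin efflux carriers in Arabidopsis, had medians of 17.6 and 63.5 CPM at the apex against 2.74 and 9.14 CPM at the leaf base. The auxin response factor Aco009671 (linkage group 1, 517803 to 527151) had 2.24 to 6.90 CPM (median 3.64) at the apex against 55.3 to 146 CPM (median 104) at the leaf base, with a log2 fold change of -4.67 ± 0.13.

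**Figure D4:**
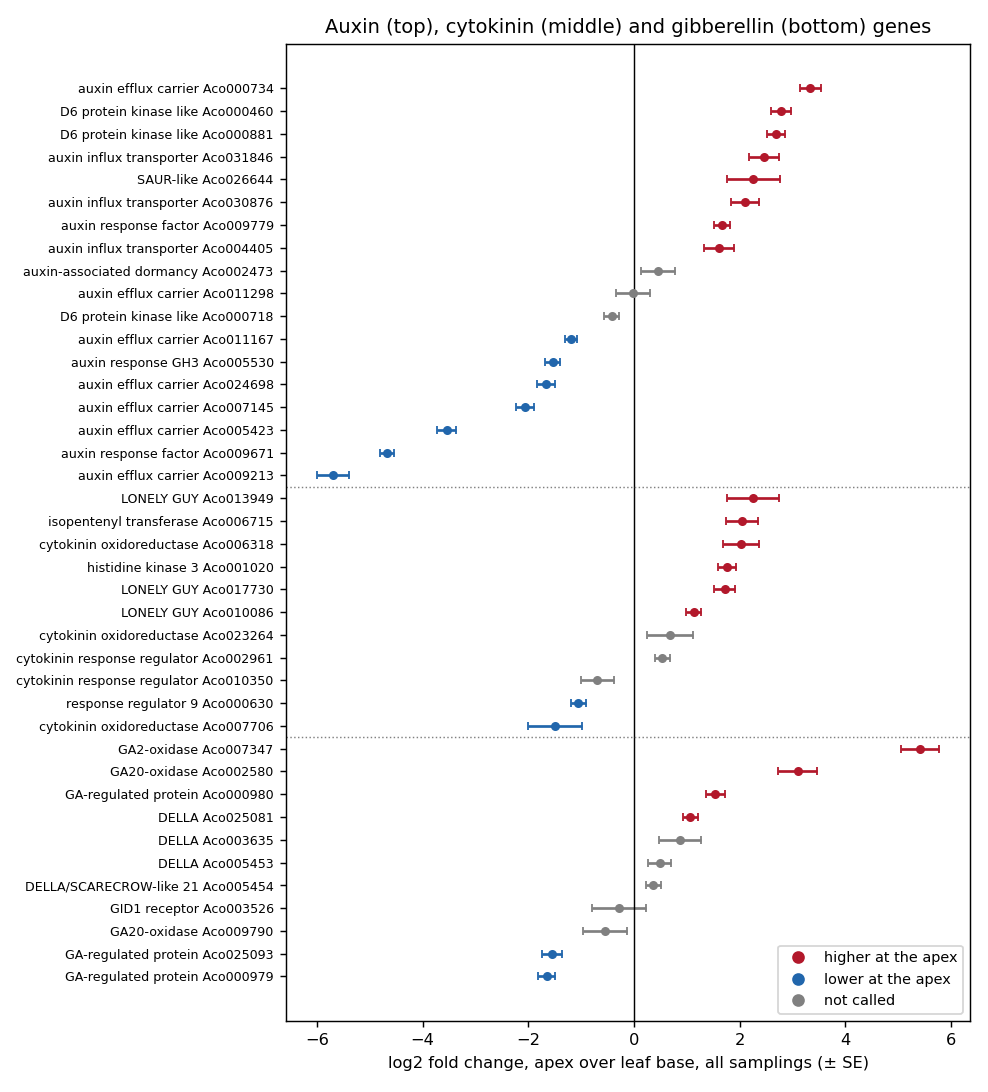
Log2 fold change, apex over leaf base with all samplings (horizontal axis), with its SE for each gene of the auxin, cytokinin and gibberellin lists; red points were higher at the apex, blue points lower and grey points not called. Auxin efflux carriers lie at both ends of the auxin list, from 3.34 to -5.69.

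Cytokinin genes were higher at the apex for 6 of 11 and lower for 2, with a median log2 fold change of 1.13. Isopentenyl transferase (Aco006715), the first enzyme of cytokinin synthesis, had 6.24 to 34.5 CPM (median 12.8) at the apex against 0.553 to 17.2 CPM (median 1.95) at the leaf base, and the 3 LONELY GUY genes, which release the active hormone, had log2 fold changes of 1.13, 1.72 and 2.25. Histidine kinase 3 (Aco001020), a cytokinin receptor, had 34.8 to 136 CPM (median 49.6) at the apex against 3.77 to 27.1 CPM (median 17.8) at the leaf base, without overlap. Cytokinin oxidoreductase (Aco006318), which breaks the hormone down, was higher as well with all samplings (log2 fold change 2.02 ± 0.34), but had -0.56 on day 2. Isopentenyl transferase had -0.18 at 6 h and 2.11 to 3.04 on days 1 to 4. For 10 of the 11 cytokinin genes the tissue difference changed over the samplings, beside 32.6% of all genes.

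Gibberellin genes were higher for 4 of 11 and lower for 2. GA2-oxidase (Aco007347, linkage group 23, 3816763 to 3823287), which inactivates gibberellin, had 5.23 to 198 CPM (median 41.8) at the apex against 0.193 to 3.44 CPM (median 1.11) at the leaf base, a log2 fold change of 5.42 ± 0.36 (adjusted p = 3.9e-14, edgeR quasi-likelihood test, Benjamini-Hochberg adjusted). The apex means were 7.51 ± 1.98 at 6 h and 25.6 ± 6.83, 43.4 ± 9.39, 91.3 ± 24.4 and 179 ± 31.1 CPM on days 1 to 4, whereas the leaf base means stayed between 0.664 and 2.16 CPM. Its log2 fold change was 1.83 at 6 h and 8.09 on day 4. Aco002580 was higher too, at a lower level of 0.544 to 8.77 CPM (median 1.92) at the apex against 0 to 1.38 CPM (median 0.278) at the leaf base. The sources conflict on this gene, which the paper's main text names as a GA20-oxidase of gibberellin synthesis and its supplement as a GA2-oxidase of gibberellin degradation. Gibberellin-regulated protein genes took both directions, with Aco000980 higher (1.54 ± 0.18) and Aco000979 and Aco025093 lower (-1.65 ± 0.16 and -1.55 ± 0.18), and the last pair span the same length and had like levels, so that they are uncertain as possible copies.

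Jasmonate genes were higher for 2 of 7 and lower for none. TIFY (Aco009689), of the family that holds the jasmonate repressors, had 62.1 to 236 CPM (median 91.7) at the apex against 6.20 to 29.7 CPM (median 22.5) at the leaf base, without overlap (log2 fold change 2.48 ± 0.14). The abscisic acid receptors gave 1 higher and 1 lower of 4.

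Of the ethylene synthesis and signalling genes, 1 of 17 was higher and 2 were lower at the apex in these plants without ethephon. Both lower genes were ACC oxidases, the last enzyme of ethylene synthesis. Aco001358 (linkage group 2, 12013620 to 12016290) had 19.7 to 644 CPM (median 155) at the apex against 399.5 to 2819 CPM (median 1022) at the leaf base, a log2 fold change of -2.61 ± 0.33, and its exons overlap another gene. The apex mean was 513 ± 90.8 CPM at 6 h and 22.0 ± 2.17 CPM on day 4, against 2462 ± 315 and 1065 ± 228 CPM at the leaf base (SD, n = 3 each). Aco003285 had 0 to 2.67 CPM (median 0.544) against 1.02 to 92.3 CPM (median 6.64) at the leaf base. The higher gene was the ACC synthase Aco000276 (log2 fold change 1.80), which was not higher at 4 or 5 samplings. No ethylene receptor, CTR1, EIN2 or EIN3/EIL gene was called with all samplings, and their log2 fold changes lay between -0.99 and 0.93. At single samplings from 6 h to day 4, 5, 3, 1, 3 and 1 of the 17 were higher, beside 13.7%, 8.17%, 9.43%, 13.6% and 15.6% of all genes tested. The number lower was 2, 3, 2, 2 and 4, beside 19.3%, 13.4%, 12.2%, 14.6% and 17.6%. For 9 of the 17 the tissue difference changed over the samplings, beside 32.6% of all genes.

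AP2/ERTFs, transcription factors of which many respond to ethylene and stress, were lower at the apex for 16 of 38 and higher for 2, with a median log2 fold change of -0.84. Aco022517 (linkage group 22, 6333171 to 6333920) had 0 to 1.30 CPM (median 0) at the apex against 0.653 to 67.0 CPM (median 21.6) at the leaf base, with a log2 fold change of -6.59 ± 0.34, and its exons overlap another gene. Aco002673 had 0 to 1.48 CPM (median 0) against 0.370 to 19 CPM (median 3.65) at the leaf base, and Aco014268 had 0 to 1.12 CPM (median 0.320) against 1.44 to 14.7 CPM (median 5.13). Only in Aco014268 of these 3 did the ranges not overlap. Aco012860 had 318 to 680.1 CPM (median 573) at the apex against 122 to 290.4 CPM (median 205) at the leaf base, and Aco021063 had 348 to 1266 CPM (median 812) against 233 to 589 CPM (median 367). The number called lower was 21 at 6 h, then 20, 7, 9 and 17 over days 1 to 4, beside 19.3%, 13.4%, 12.2%, 14.6% and 17.6% of all genes tested at these samplings. The number called higher was 6, 3, 6, 10 and 1 in the same order, beside 13.7%, 8.17%, 9.43%, 13.6% and 15.6% of all genes, so that on day 3 more members were higher than lower. The median log2 fold change of the list was -1.67, -1.15, -0.42, 0.45 and -0.91 from 6 h to day 4. WRKY genes, a family of stress-responsive factors, were lower for 5 of the 7 listed members and higher for none (median -1.90). Aco000547 had 0 to 3.12 CPM (median 0.814) at the apex against 3.44 to 24.3 CPM (median 13.3) at the leaf base, without overlap.

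Sugar genes took both directions, with 6 of 16 higher and 7 lower at the apex. The higher ones included trehalose phosphate synthase (Aco000950), which makes the sugar signal trehalose-6-phosphate, at 2.97 to 323 CPM (median 87.2) at the apex against 2.90 to 44.2 CPM (median 14.6) at the leaf base. Trehalose-6-phosphate phosphatase (Aco001192), which removes that signal, was higher as well, at 0 to 15.5 CPM (median 4.45) against 0 to 3.79 CPM (median 0.967). Its log2 fold change was -0.95 at 6 h, and its day 1 call was lost in 4 of the 6 fits that each left out a library. That of the synthase was 0.28 on day 4. Of the 16 sugar genes, 14 changed their tissue difference over the samplings, beside 32.6% of all genes. The bidirectional sugar transporter Aco011302 (linkage group 1, 12586879 to 12591888) had 21.4 to 98.6 CPM (median 51.0) at the apex against 204 to 481 CPM (median 366) at the leaf base, a log2 fold change of -2.83 ± 0.15 without overlap, and sucrose phosphate synthase (Aco017378) had medians of 0.774 CPM at the apex and 4.39 CPM at the leaf base.

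Among developmental factors outside the meristem list, the homeobox-leucine zipper gene Aco000178 (linkage group 12, 3954119 to 3956227) had 8.35 to 90.1 CPM (median 30.4) at the apex against 115 to 433 CPM (median 223) at the leaf base, and Aco002750 the opposite order, with 6.56 to 31.7 CPM (median 12.7) against 0.344 to 6.23 CPM (median 3.09). Neither pair of ranges overlapped. The SBP-like gene Aco000696, of a family that marks the adult phase in Arabidopsis, had 27.4 to 75.5 CPM (median 48.7) at the apex against 116 to 306 CPM (median 195) at the leaf base, with a log2 fold change of -2.12 ± 0.09. OVATE genes, repressors of organ elongation, were higher for 3 of 7 and lower for 1. None of them was called so at 4 or more samplings, beside 5.19% higher and 8.12% lower among all genes.

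Cell wall and lignin genes were lower at the apex for 5 of 23 and higher for 3. The endoglucanase Aco001010 (linkage group 2, 14970039 to 14975645), which cuts wall glucans in growing and differentiating cells, had 0 to 0.774 CPM (median 0) at the apex against 2.05 to 74.7 CPM (median 7.25) at the leaf base, a log2 fold change of -6.81 ± 0.33. Over the samplings from 6 h to day 4, 11, 5, 4, 4 and 5 of the 23 were lower at the apex, beside 19.3%, 13.4%, 12.2%, 14.6% and 17.6% of all genes tested, and 3, 2, 1, 1 and 6 were higher, beside 13.7%, 8.17%, 9.43%, 13.6% and 15.6%. The wall markers of vascular tissue, FLA12 (Aco000805) and MYB103 (Aco000847), had medians of 25.3 and 0.232 CPM at the apex against 39.0 and 0.370 CPM at the leaf base. MYB103 was lower at the apex (log2 fold change -1.29 ± 0.43) and FLA12 stayed within the fold limit (-0.70 ± 0.17). Chloroplast and pigment genes, listed as markers of green leaf, were higher at the apex for 3 of 14 and lower for 2, so that this list did not mark the leaf base. The highest log2 fold change in this list was 3.36. Of the 3 higher ones, Aco000248 and Aco000788 were called higher at 4 or 5 samplings. From 6 h to day 4 the log2 fold changes of Aco000248 were 2.13, 1.63, 1.02, 2.07 and 2.27, and those of Aco000788 were 3.56, 1.55, 0.19, 1.82 and 2.11. Neither was called on day 2, when 0 members of the list were higher and 3 lower, beside 9.43% and 12.2% of all genes. The day 1 call of Aco000788 was lost in 5 of the 6 fits that each left out a library. With all samplings the 2 lower ones were PGR5 (Aco010143) and CP12-3 (Aco000727). PGR5, which protects photosystem I, had 0 to 3.87 CPM (median 0) at the apex against 0.778 to 21.4 CPM (median 8.16) at the leaf base. The Calvin cycle protein CP12-3 had 1.63 to 9.05 CPM (median 2.76) against 7.21 to 46.6 CPM (median 9.95). Pentatricopeptide repeat genes, which process organelle RNA, were higher for 4 of the 24 listed members and lower for none. Defence and stress proteins gave 1 higher and 1 lower of 14.

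At single samplings, by the same test on 6 libraries, 3052 genes were higher and 4293 lower at the apex at 6 h, 1811 and 2968 on day 1, 2083 and 2701 on day 2, 3034 and 3259 on day 3, and 3492 and 3939 on day 4. Calls in 1 direction at 4 or 5 samplings, which the naming of genes used, were made for 1230 higher (5.19%) and 1925 lower genes (8.12%). Over the 5 samplings 646 genes were higher each time (2.72%) and 1133 lower each time (4.78%), while 587 were called in both directions at different samplings. The tissue difference changed over the samplings for 7733 genes (32.6%), at an adjusted p under 0.05 and a range of at least 1 between the 5 log2 differences, and for 183 of the 342 listed genes. Without the 6 h sampling the number was 4989. Leaf base lanes differed between samplings while all apex libraries shared 1 lane. A lane effect therefore cannot be fully told apart from a change over the samplings in this test. The alternative with leaf base libraries of 1 flow cell was not fitted for it.

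The 5 listed genes with the smallest p in that test were a WRKY gene, a pair of AP2/ERTF genes, NINJA and an auxin-associated dormancy gene. Aco000358, a WRKY gene (linkage group 12, 2448646 to 2450713), had 0.218 ± 0.377, 5.83 ± 3.21, 14.1 ± 4.00, 7.74 ± 4.69 and 37.6 ± 10.4 CPM at the apex from 6 h to day 4, against 37.5 ± 7.13, 217 ± 47.6, 7.86 ± 3.45, 19.4 ± 5.58 and 186 ± 30.7 CPM at the leaf base (SD, n = 3 each). It was lower at the apex at all samplings but day 2, and the day 3 call was lost without apex replicate 2 (adjusted p of the change 4.5e-10, edgeR quasi-likelihood test, Benjamini-Hochberg adjusted). The AP2/ERTF gene Aco001318 (linkage group 2, 12402716 to 12403708) was lower at the apex in the 6 h and day 1 samplings and higher on days 2 and 3, with log2 fold changes of -6.38, -2.83, 2.44, 1.39 and -0.61 from 6 h to day 4. Another, Aco005509, was lower at the apex in the 6 h, day 1 and day 4 samplings, when the leaf base held 66.7 ± 15.8, 46.6 ± 7.37 and 54.5 ± 9.23 CPM, and not on days 2 and 3, when the leaf base held 5.24 ± 1.55 and 6.33 ± 1.67 CPM. At the apex this gene stayed between means of 3.11 and 9.88 CPM. NINJA (Aco003903), an adaptor of jasmonate repression, had log2 fold changes of 2.07 at 6 h and 2.51 on day 3, where it was higher at the apex, and -2.45 on day 4, where it was lower. The auxin-associated dormancy gene Aco002473, whose exons overlap another gene, was higher at the apex at 6 h, with 118 ± 20.2 CPM against 11.1 ± 2.60 CPM, and lower on day 4, with 19.5 ± 2.29 CPM against 47.1 ± 9.94 CPM. The KNOTTED-1-like genes Aco015873 and Aco004983 did not pass this test (adjusted p = 0.13 and 0.12, edgeR quasi-likelihood test, Benjamini-Hochberg adjusted), and 4 of the 17 genes of the meristem list did.

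**Figure D5:**
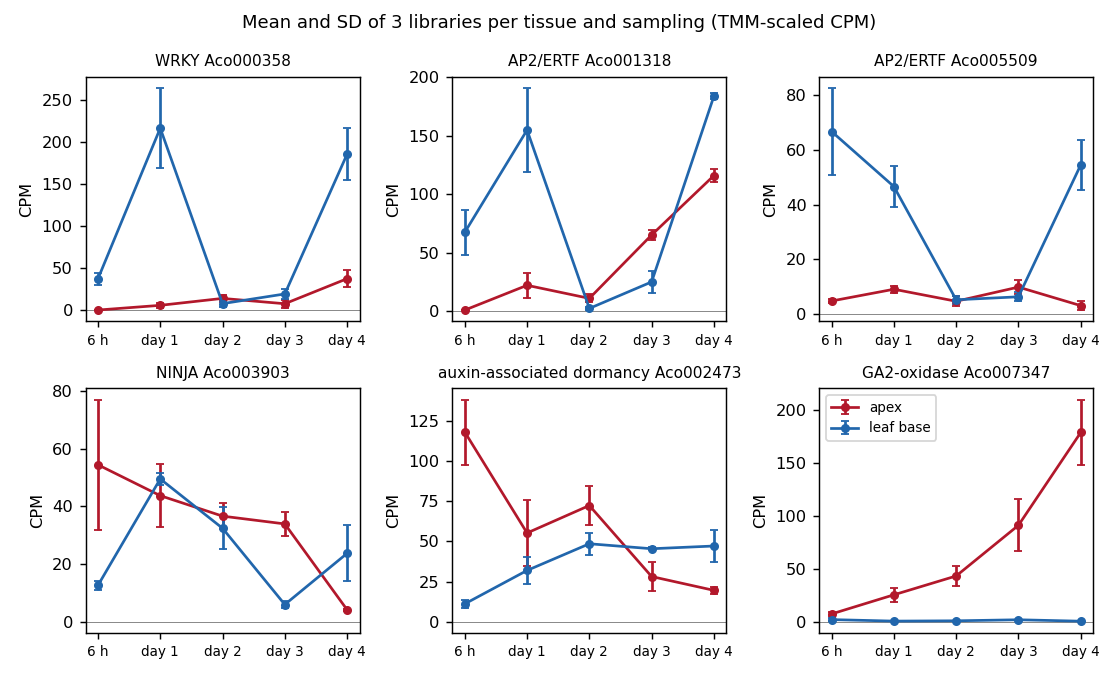
Mean CPM (vertical axes, linear) with the SD of 3 libraries at the apex (red) and the leaf base (blue) from 6 h to day 4 for the 5 listed genes with the smallest p of the tissue by sampling test and for GA2-oxidase. In the upper row the leaf base means of days 2 and 3 lie below those of days 1 and 4, and the apex mean of GA2-oxidase runs from 7.51 CPM at 6 h to 179 CPM on day 4.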

How the data were processed

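Per the labels and the paper, the authors trimmed reads with Trimmomatic 0.36, aligned them with HISAT2 2.0.5 to Acomosus_321_v3 and counted them on exons with featureCounts 1.6.0. Per the file headers, strand was ignored and multi-mapped reads were included. The deposited values are raw counts, 1 table per library, without normalization. RNA extraction is given as TRIzol in the labels and as a column kit in the paper. Groups came from sample titles. The members and gene lists were chosen with earlier results of these data known.

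Every gene that had 1 count or more among the fitted libraries was kept, counts were scaled by TMM in edgeR 4.0.16 (R 4.3.3), and tissue was tested by edgeR's quasi-likelihood test with sampling as a covariate (30 libraries), at each sampling (6 libraries) and as tissue by sampling, with Benjamini-Hochberg adjustment over all genes. The SE of a log2 fold change is its size divided by the square root of F. Levels are TMM-scaled CPM, and FPKM used the exon length. The fits were tested on simulated data, and DESeq2 1.42.0 was an alternative.

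All members of the meristem, MADS-box and flowering lists could be named. In each other list the rule took up to 3 members per direction, those with the largest log2 fold change among members called with all samplings and at 4 or 5 samplings. The 5 members with the smallest tissue by sampling p and 2 genes per direction of the whole table were added. Marker genes were listed as such. The ACC synthase, LONELY GUY and auxin influx genes named or grouped beyond this were chosen after their values were seen. Replicates of a group differed by more than sampling noise (chi-square per gene 2.14 to 22.3), and same-numbered apex and leaf base libraries did not deviate together. The tests reported used no block, and the block was an alternative. Counting intervals cover counting error only. No annotation was matched to these gene identifiers, so that no sequence is given.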

Additional observations from a re-analysis of the deposited data

Results flagged for a closer look

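The difference between apex and leaf base itself differed between samplings for 7733 genes (tissue by sampling in the edgeR quasi-likelihood test, Benjamini-Hochberg adjusted). The genes below were named for the smallest p in this test or had calls in opposite directions at different samplings. No single library was tested against its group, since the groups held 3 or 15 libraries. Adjusted p was 3.6e-12 for the AP2/ERTF gene Aco001318, 6.2e-11 for NINJA (Aco003903), 8.9e-11 for the auxin-associated dormancy gene Aco002473, 1.5e-10 for the AP2/ERTF gene Aco005509 and 4.5e-10 for the WRKY gene Aco000358. The AP2 gene Aco006706 (adjusted p = 3.7e-07, edgeR) was higher at the apex at 6 h, with 273 ± 52.7 CPM against 118 ± 40.3 CPM at the leaf base, and lower on day 4, with 3.86 ± 2.44 CPM against 33.6 ± 6.21 CPM (SD, n = 3 each). Its 6 h call was lost without leaf base replicate 3. The pectin acetylesterase gene Aco000703, of a cell wall enzyme (adjusted p = 1.4e-05, edgeR), was lower at the apex at 6 h (log2 fold change -1.51) and higher on days 1 to 4 (2.15, 2.81, 1.30 and 1.30), and the 6 h call was lost without replicate 2 of either tissue and the day 4 call without apex replicate 2. The CONSTANS-like gene Aco026137 (adjusted p = 0.00023, edgeR) was lower at the apex from 6 h to day 2 and higher on day 4 (log2 fold change 1.20). The day 4 call was lost in 5 of the 6 fits that each left out a library and the day 1 call in 4 of them. The day 4 call was also lost with RLE scaling, DESeq2, the replicate block and 1 fit of the 30 libraries, and the day 1 call with DESeq2 and the replicate block. The light-dependent short hypocotyl gene Aco008960 (adjusted p = 0.00095, edgeR) was higher at the apex at 6 h, with 23.4 ± 20.4 CPM against 6.74 ± 4.22 CPM, and lower on day 2, and the 6 h call was lost without replicate 3 of either tissue.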

How the results depend on the processing

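The counts with all samplings moved by more than 1.5 times only with the fold limit. Without it 6871 genes were higher and 7722 lower at the apex, and with a log2 fold change above 2 in size 997 and 2046. At single samplings no limit gave 3876 and 4749 on day 1, 3455 and 4191 on day 2, 5092 and 5289 on day 3 and 6100 and 6367 on day 4, and a log2 fold change above 2 gave 1366 and 2491 at 6 h, 708 and 1565 on day 1, 806 and 1404 on day 2, 1212 and 1521 on day 3 and 1376 and 2042 on day 4. With 1 of the 30 libraries left out, 2847 to 2977 were higher and 4056 to 4258 lower, and without 1 replicate number in both tissues 2633 to 2853 and 3664 to 3942. DESeq2 gave 2763 and 3826. The tissue by sampling count was 4989 without the 6 h sampling and 5845 to 7819 without 1 replicate number.

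The labels share replicate numbers between tissues. The deviations of same-numbered apex and leaf base libraries correlated at -0.102 to 0.0729, with none of 15 pairs above 0.1. The number may mark a field replication, and whether same-numbered pools came from the same plants is not certain. With the replicate number as a block 2871 were higher and 4151 lower, with 15 pairs 2796 and 3917, and tissue by sampling gave 7313 with 15 pairs.

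Since lane and tissue cannot be told apart, apices of days 3 and 4 were also set against the 6 ethephon-treated leaf base libraries of the same days on the apex lane, which differ in treatment too. There 3362 genes were higher and 3625 lower, and of 117 named genes 9 calls were lost, 7 were gained and 3 reversed. The reversed ones were AcFUL2 (Aco012428, log2 fold change -5.45), GIGANTEA-like (Aco014347, 1.05) and Aco002473 (-1.18), none of which was called with all samplings. The lost ones, with their log2 fold changes there, were Aco015382 (0.52), Aco000252 (-0.98), Aco026137 (-0.98), Aco000996 (0.90), Aco003285 (-1.49), Aco012860 (0.95), Aco021063 (0.78), Aco010143 (-1.41) and Aco000946 (-0.91). Treatment and lane cannot be told apart there. RLE scaling, DESeq2, the filter of 1 CPM in 3 libraries, both blocks, leaf base libraries of 1 flow cell and leaving out overlapping genes changed no call, with all samplings, of the named genes they covered. Of 119 named genes, DESeq2 covered 115, the filter 113 and the fit without overlapping genes 105. For named genes that a fit did not cover, among them those with overlapping exons, that fit shows nothing. At single samplings some of these settings changed calls, and DESeq2 and the replicate block lost the day 1 calls of Aco019058, Aco026137, Aco002301 and Aco000788 and the day 4 calls of Aco006318 and Aco026137.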
